A study of Mus musculus with 3 samples.

Results

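Hepatocytes, the parenchymal cells of the liver, were compared between control mice and mice given the liver toxin carbon tetrachloride (CCl4). The members are 3560 cell barcodes out of 24006 in the libraries titled CCL4 and CON (36990 in the series), 2399 of 12761 in CCL4 and 1161 of 11245 in CON. They were chosen by their own UMI counts (unique molecular identifiers, which count captured RNA molecules). A barcode was taken when 3 to 30% of its UMIs came from mitochondrially encoded genes, when Alb, Apob and Cps1 together held at least 20 UMIs, and when Ptprc, Cd3e, Cd79a, Ptprb, Krt19 and Col3a1, which mark other liver cells, held 0. UMIs were then summed per library, and 2761 of 55357 genes were selected on a level of at least 50 CPM (UMI counts per 1000000 counts of that cell set) in either library.

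The single-cell series has 3 libraries of wild-type male C57BL/6J mice, each from the mixed hepatocytes and nonparenchymal cells of 2 animals, and was made to look at Bdnf and Tlr4 across liver cell types. Animals of all 3 groups entered at 8 weeks of age. The CON animals were untreated, and their age at sampling is not given in the sources used here. The CCL4 animals ate chow for 3 months and then received 0.1 mL of 10% CCl4 into the peritoneum 2 times per week for 4 weeks. The third library (HFD) came from mice fed for 4 months on a high-fat diet (60% of calories), and its levels are given in places beside the compared pair. With 1 library a side no test was possible. Each value below describes these libraries, 95% intervals cover counting error only, and the toxin, the injections, the age, the animals and the preparation cannot be told apart.

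CCl4 is itself harmless until cytochrome P450 enzymes, above all Cyp2e1, turn it into a radical inside hepatocytes. These enzymes sit around the central vein, so pericentral hepatocytes are hit first, whereas hepatocytes around the portal vein, which make urea and glucose, are largely spared and divide to replace them. Hepatocytes are also the source of the acute-phase proteins, blood proteins whose genes are switched on by interleukin 1 and interleukin 6, and of hepcidin, the hormone of iron balance.

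The label hepatocyte was checked with 20 hepatocyte genes that the rule had not used. Their summed level was 99014 CPM in CON and 108885 CPM in CCL4 hepatocytes. In T cells it was 29734 CPM in CON and 93905 CPM in CCL4. The sum thus set hepatocytes apart from T cells in CON but hardly in CCL4. Markers of other cells were present at unequal levels. T cell markers summed to 9.64 CPM in CON and 11 CPM in CCL4 hepatocytes, against 3850 and 2492 CPM in T cells, and macrophage markers to 3.7 and 2.49 CPM. The 6 granulocyte markers were at 146 CPM in CON, all 6 detected, and at 11.3 CPM in CCL4 hepatocytes, where Ly6g was at 0. The 7 cholangiocyte markers summed to 448 CPM in CON, with Krt19 and Krt7 at 0, and to 173 CPM in CCL4, with 2 at 0, Krt19 among them. Krt19 was set to 0 by the rule, and so was Cd3e, which is among the 11 T cell markers. The T cells were themselves chosen on Cd3d, Cd3e and Trac of those markers. That contrast was thus partly set by the choice of barcodes. The 6 erythroid markers, mostly hemoglobin, summed to 465 CPM in CON, with 1 at 0, and to 284 CPM in CCL4, against 3458 and 1790.1 CPM in T cells. The part of these other-cell RNAs in the results was not tested. Depth differed, with a median of 8286 UMIs per hepatocyte in CON and 3098 in CCL4, while 10269399 and 8847843 UMIs lay behind the sums. The barcodes just inside and outside the lower mitochondrial limit (3 to 3.5% and 2.5 to 3%) were 37 and 41 in CON and 309 and 318 in CCL4. Just inside and outside the limit of 50 CPM (50 to 55 and 45 to 50 CPM) lay 197 and 224 genes. The compared libraries shared 49 cell barcodes, of which 0 were hepatocytes in both.

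Hepatocyte RNA was found in the barcodes of other cells, more of it in CCL4. Droplets also capture free RNA from broken cells, and its level was read from T cells (1691 in CON and 932 in CCL4, barcodes with at least 2 UMIs in Cd3d, Cd3e and Trac), which do not make liver proteins. A T cell held a median of 12 UMIs of Alb, Apob and Cps1 in CON and 80 in CCL4, and a hepatocyte held 210 and 238. T cells had a median of 2528 UMIs in all in CON and 2101 in CCL4. All 932 CCL4 T cells reached the limit of 20 such UMIs, against 227 of 1691 in CON, and because all 12761 CCL4 barcodes reached it, the members of that library were set by the mitochondrial share and the genes of other cells alone. The 20 hepatocyte genes outside the rule reached 29734 CPM in CON T cells and 93905 CPM in CCL4 T cells. T cell levels are therefore given beside hepatocyte levels for many genes, and 2 barcodes in each library counted as both. A fold given without them is not thereby clear of free RNA. The part of free RNA in the results was not tested. The genes of the rule stood at 28013 CPM in CON and 66534 CPM in CCL4 hepatocytes for Alb (albumin), 2669.7 and 2399.9 CPM for Apob and 2011 and 5619 CPM for Cps1, which describes the choice of barcodes.

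Of the 2761 genes, 232 were at least 2-fold higher in CCL4 hepatocytes (8.4%) and 249 at least 2-fold lower (9.02%). The 232 include Alb, Cps1 and the mitochondrially encoded mt-Nd6, on which the rule chose barcodes. These shares are the background for the hepatocyte counts of each list below. The median of all log2 ratios was 0.05. Just above the 2-fold limit (ratios of 2 to 2.2) lay 53 genes and just below it (1.8 to 2) 94, and on the lower side 37 (0.45 to 0.5) and 56 (0.5 to 0.55). The tail of lower genes was the longer, with 95 genes at least 4-fold lower and 43 at least 4-fold higher. In T cells, 546 of the same genes were at least 2-fold higher (19.8%) and 258 lower (9.34%). Of the 232 genes higher in hepatocytes, 183 were also at least 2-fold higher in T cells, and 34 had as high a CPM in CCL4 T cells as in CCL4 hepatocytes. Of the 249 lower genes, 133 were also at least 2-fold lower in T cells, 0 were higher, and 41 had as high a CPM in CON T cells as in CON hepatocytes. When the mean UMIs of a T cell were taken off those of a hepatocyte, 189 of the 232 and 208 of the 249 were still at least 2-fold apart. Over all genes that then reached 50 CPM, 607 were higher and 438 lower. A gene with a higher mean in T cells than in hepatocytes of a library was left whole in that library.

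**Figure D1:**
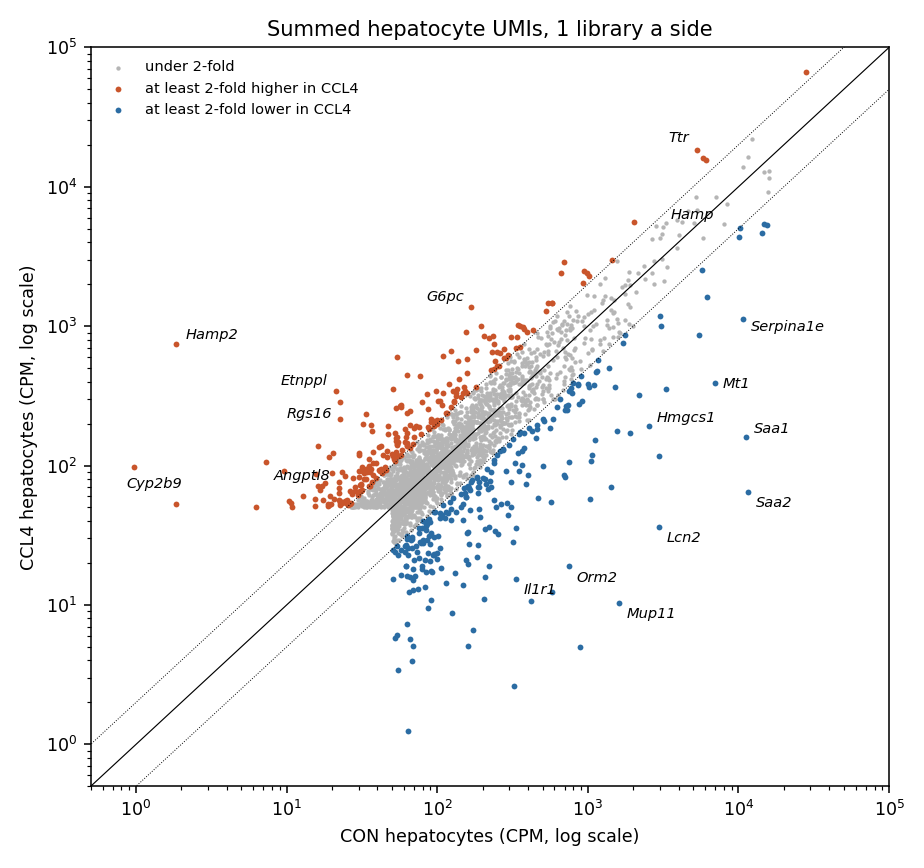
Level of each of the 2761 compared genes in hepatocytes of the CON library (x axis) and the CCL4 library (y axis), in CPM on log scales. Each point is a gene, the solid line marks equal levels and the dotted lines a 2-fold difference. Saa2, Saa1, Lcn2 and Mup11 lie far under the line and Hamp2 and Cyp2b9 far above it.

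Acute-phase protein genes were nearly all lower in CCL4 hepatocytes. Of 25 listed genes, 23 were compared, and 22 of these were at least 2-fold lower (background 9.02%), with a median log2 ratio of -1.69. Their summed level was 119128 CPM in CON, 35248 CPM in CCL4 and 36366 CPM in HFD hepatocytes, so the CON library stood apart from the others, with the highest level in the untreated mice.

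Saa2 (ENSMUSG00000057465), a serum amyloid A protein that rides on high-density lipoprotein during inflammation, stood at 11558 CPM in CON and 64.6 CPM in CCL4 hepatocytes. It was 179-fold lower with CCl4 (95% interval 165 to 194), and its T cell levels were 7892 and 86.8 CPM. At least 1 Saa2 UMI was seen in 1161 of 1161 CON hepatocytes (95% interval of the share 99.7 to 100%) and in 281 of 2399 CCL4 hepatocytes (11.7%, 10.5 to 13.1%, exact Clopper-Pearson intervals). When each barcode was thinned to 1000 UMIs, which left out none, these shares became 99.7% and 4.59%. The CCL4 share lay below that of CCL4 T cells (8.01%, 16.7% before thinning), a share read as background, and in CON nearly all T cells held the RNA as well (98.7% thinned, 100% before). Saa1, its close relative, was at 11281 CPM in CON and 161 CPM in CCL4, 70.2-fold lower. Reads of the near-identical Saa1 and Saa2 may be split between them by the counting, and both lay far lower.

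Lcn2, which withholds iron-binding siderophores from bacteria, stood at 2981 CPM in CON and 36.4 CPM in CCL4 (923 and 27.6 CPM in T cells), 81.9-fold lower (73.4 to 91.7). Granulocytes express Lcn2 too, and their markers, given above, were also lower in CCL4. Orm2, an orosomucoid carrier protein of plasma, was at 751 and 19 CPM, 39.5-fold lower. Apcs, the serum amyloid P component, was at 1417 and 70.2 CPM, 20.2-fold lower. In HFD, Orm2 stood at 73.7 CPM and Apcs at 134 CPM, both under CON but above CCL4. Saa3 (417 against 10.6 CPM) and Il1rn, the interleukin 1 receptor antagonist (160.5 against 5.09 CPM), completed the genes of this list that were at least 20-fold lower. In HFD, Lcn2 (32 CPM), Saa3 (9.95 CPM) and Il1rn (2.49 CPM) lay below CCL4, and Saa2 (271 CPM) and Saa1 (516 CPM) above it. The fibrinogen chains, clotting proteins with high levels at rest, differed less. Fga stood at 15561 CPM in CON and 5301 CPM in CCL4, 2.94-fold lower (2.91 to 2.97), and Fgb at 14784 and 5403 CPM, 2.74-fold lower. In T cells these last levels were nearly equal between the libraries, 2570.0 and 2450.1 CPM for Fga and 3246 and 3086 CPM for Fgb. The single compared acute-phase gene that was not lower was Hamp, described below.

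**Figure D2:**
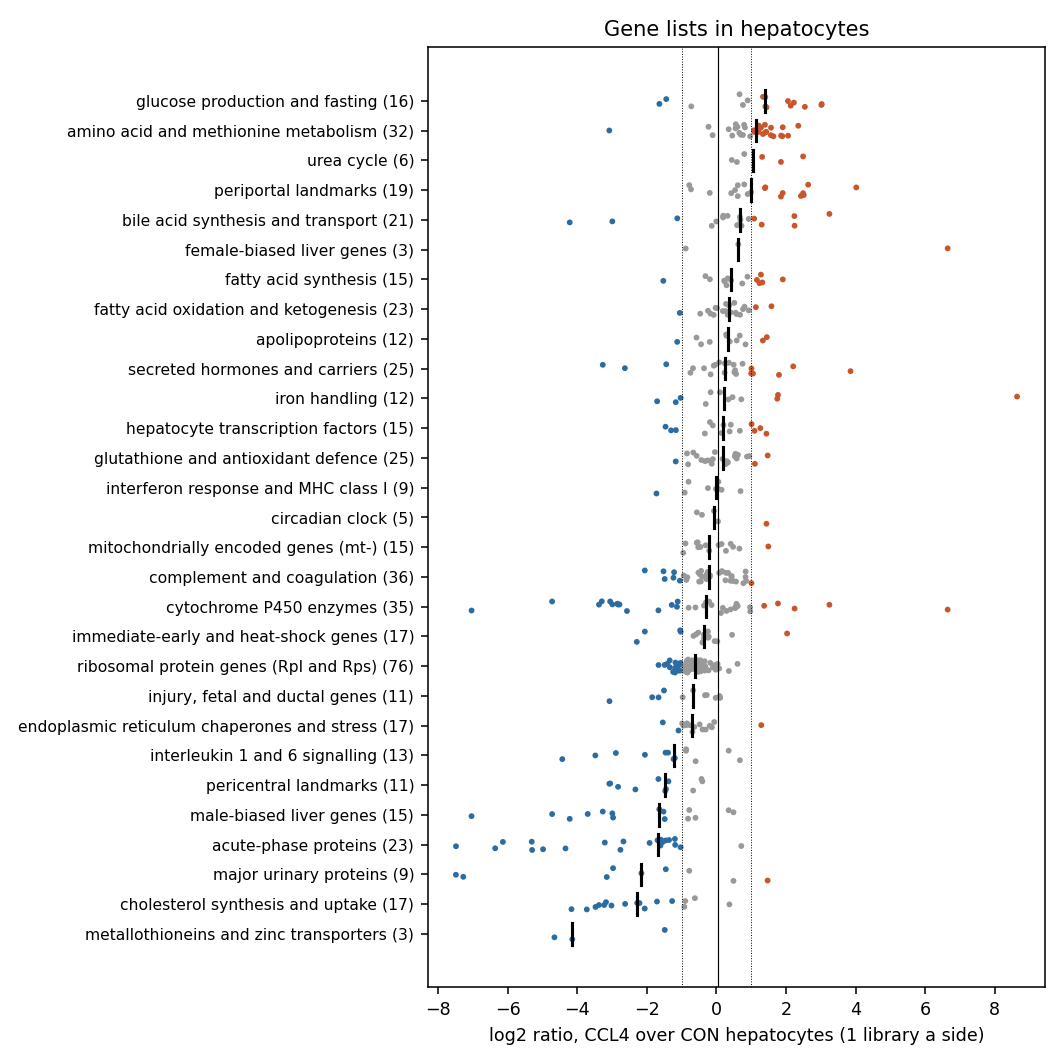
The log2 ratio of CCL4 to CON in hepatocytes (x axis) for each compared gene of 29 gene lists (rows, number of genes compared in brackets), ordered by their median (thick bar). Blue and orange points are at least 2-fold lower and higher in CCL4 (dotted lines), and the thin line is the median of all 2761 genes. Acute-phase proteins, cholesterol synthesis and metallothioneins lie to the left, and glucose production, amino acid metabolism and the urea cycle to the right.

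Genes that receive and pass on the interleukin 1 and interleukin 6 signals lay lower as well, 8 of 13 at least 2-fold and 0 higher, with a median log2 ratio of -1.23 in hepatocytes and -1.20 in T cells. Il1r1, the receptor that binds interleukin 1, had 3396 UMIs in CON and 136 in CCL4 hepatocytes, a level of 331 against 15.4 CPM. It was 21.5-fold lower (18.1 to 25.7), and 19.6 CPM in HFD. Steap4, a metalloreductase of the cell membrane that responds to inflammatory cytokines, was 11.1-fold lower, at 1904 and 171 CPM. Bcl3 and Nfkb1, which belong to the NF-kB system, stood at 156 and 95.6 CPM in CON and at 21 and 23.1 CPM in CCL4. Nfkb1 was higher in T cells than in hepatocytes of both libraries (189 and 75.8 CPM), and with the T cell mean taken off its log2 ratio was 0.22. That mean was taken off in CON only, since in CCL4 a T cell held more Nfkb1 UMIs (0.177) than a hepatocyte (0.085). The 0.22 thus sets a whole against a subtracted level. Cebpb, a transcription factor of the acute-phase response, was at 1377 CPM in CON and 501 CPM in CCL4, 2.75-fold lower.

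Metallothioneins, small proteins that bind zinc and copper and whose genes answer to metals, glucocorticoids and interleukin 6, were lower by more than 10-fold in both compared members. Mt1 stood at 6938 CPM in CON and 394 CPM in CCL4 hepatocytes, 17.6-fold lower (17 to 18.2). Mt2 stood at 2955 and 118 CPM, 25.1-fold lower (23.6 to 26.8). Both levels in HFD, 184 and 61.6 CPM, were below those of CCL4. The T cell levels followed, from 4421 to 258 CPM for Mt1 and from 1732 to 41.3 CPM for Mt2. Slc39a14, a zinc and iron importer that interleukin 6 raises, was at 375 CPM in CON and 134 CPM in CCL4, 2.79-fold lower. With it, 3 of 3 compared genes of this list were at least 2-fold lower.

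The start regions of the metallothionein genes are shown because both genes lie side by side and were lower together. Each is 250 bases before to 50 after the gene's start, read 5′ to 3′ on the strand of the gene from RefSeq on GRCm38.p6, where both genes lie on the plus strand, Mt1 at chr8:94178839-94179138 and Mt2 at chr8:94172368-94172667. Capitals mark each match on either strand of TGCNCNC. It is looser than the core of the metal response element, in which the letter after TGC is A or G.
Mt1: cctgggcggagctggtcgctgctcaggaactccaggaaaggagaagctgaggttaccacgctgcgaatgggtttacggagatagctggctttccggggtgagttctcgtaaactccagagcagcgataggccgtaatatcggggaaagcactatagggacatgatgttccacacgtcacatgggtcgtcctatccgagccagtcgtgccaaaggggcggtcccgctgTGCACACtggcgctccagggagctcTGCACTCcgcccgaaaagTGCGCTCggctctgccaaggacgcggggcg
Mt2: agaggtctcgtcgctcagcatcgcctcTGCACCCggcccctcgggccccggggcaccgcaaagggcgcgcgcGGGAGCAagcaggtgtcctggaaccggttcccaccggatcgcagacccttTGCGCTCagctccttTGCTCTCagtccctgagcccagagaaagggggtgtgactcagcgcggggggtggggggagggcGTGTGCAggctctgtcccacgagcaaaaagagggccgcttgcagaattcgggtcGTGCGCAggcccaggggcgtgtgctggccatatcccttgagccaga
The Mt1 window held 3 matches of the looser letters and the Mt2 window 6. Of the Mt2 matches, TGCTCTC and GGGAGCA (read on the opposite strand) have T after TGC and so are not such cores. The shares below count the looser letters too. At least 3 matches were found in 7.1% of 32851 such windows and at least 6 in 0.225%. A match is a run of letters, and no binding was measured here.

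Genes of cholesterol synthesis and uptake were also lower. Of 17 compared genes, 13 were at least 2-fold lower in CCL4 (background 9.02%) and 0 higher. The median log2 ratio was -2.27 in hepatocytes and -1.63 in T cells. Summed levels were 10889.8 CPM in CON, 2775 CPM in CCL4 and 5089 CPM in HFD. Idi1, which makes the second of the isoprenoid building blocks, stood at 1037 CPM in CON and 57.9 CPM in CCL4, 17.9-fold lower (16.4 to 19.6). Hmgcs1, which makes HMG-CoA in the cytosol, stood at 2532 and 192 CPM, 13.2-fold lower (12.6 to 13.9). Nsdhl and Cyp51, later enzymes of the sterol ring, were 11.1-fold and 10.4-fold lower.

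The start region of Hmgcs1, on the plus strand at chr13:119690101-119690400 of GRCm38.p6 in RefSeq, is shown because Hmgcs1 had the highest level of the list in CON. Capitals mark matches on either strand of TCACNCNAC, the core of the sterol regulatory element, and of CCAAT, the box bound by NF-Y next to it.
Hmgcs1: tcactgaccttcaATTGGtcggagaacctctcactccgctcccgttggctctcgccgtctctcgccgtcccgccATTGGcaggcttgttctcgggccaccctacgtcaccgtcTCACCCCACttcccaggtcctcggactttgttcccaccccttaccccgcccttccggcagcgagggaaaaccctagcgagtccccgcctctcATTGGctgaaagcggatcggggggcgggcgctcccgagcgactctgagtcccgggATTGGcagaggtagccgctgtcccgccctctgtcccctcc
There was 1 match of TCACNCNAC, which 2.7% of the 32851 windows hold, and 4 of CCAAT, all on the opposite strand and printed as ATTGG, where 1.06% of windows hold at least 4.

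Fatty acid synthesis did not go the same way. Of 15 compared genes, 5 were at least 2-fold higher (background 8.4%) and 1 was lower. Srebf1, the transcription factor that drives the pathway, was at 63 CPM in CON and 237 CPM in CCL4, 3.76-fold higher (3.44 to 4.11). Thrsp, a lipogenic protein, and Elovl5, which lengthens polyunsaturated chains, were 2.5-fold and 2.43-fold higher. Thrsp stood at 44.3 CPM in CON and 288 CPM in CCL4 T cells, the latter above the 270.5 CPM of CCL4 hepatocytes, and with the T cell mean taken off its ratio was 1.31, under 2-fold. Elovl5 stood at 115 and 219 CPM in T cells, and Srebf1 at 31.4 and 73 CPM. Acss2, which makes acetyl-CoA from acetate, was the lower gene, at 223 CPM in CON and 77.5 CPM in CCL4. Scd1, the stearoyl-CoA desaturase, stood at 3280.3 and 5499 CPM, and at 20895 CPM in HFD. In fatty acid oxidation and ketogenesis 2 of 23 genes were higher and 1 lower, a share close to the 8.4% of all genes. Among these were Acaa1b and Acaa1a, peroxisomal thiolases of similar sequence, at 139 and 96.2 CPM in CON and 418 and 46.5 CPM in CCL4.

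Genes of the central and portal ends of the liver lobule differed in opposite directions. Of 11 compared pericentral landmarks, 8 were at least 2-fold lower in CCL4 and 0 higher (median log2 ratio -1.47). Of 19 periportal landmarks, 9 were at least 2-fold higher and 0 lower (median 1.00). In T cells the medians were -0.59 and 2.30. In such sums, fewer cells of a type and less RNA per cell cannot be told apart, so counts per barcode are given for some genes.

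Cyp2e1 (ENSMUSG00000025479), the enzyme that activates CCl4, stood at 920.4 CPM in CON, 290.4 CPM in CCL4 and 2342 CPM in HFD hepatocytes. It was 3.17-fold lower with CCl4 (3.03 to 3.31). More than 5 Cyp2e1 UMIs were seen in 364 of 1161 CON hepatocytes and in 133 of 2399 CCL4 hepatocytes. At 1000 UMIs per barcode, 36.7% of CON and 15.1% of CCL4 hepatocytes would hold a Cyp2e1 UMI (59.6% and 29.2% before thinning), against 28.4% and 20.4% of T cells. The CCL4 hepatocyte share was below that of CCL4 T cells, so a hepatocyte of that library with 1 such UMI cannot be told from free RNA.

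Glul, glutamine synthetase of the innermost pericentral layer, had 2712 UMIs in CON and 466 in CCL4 hepatocytes (264 and 52.7 CPM), 5.01-fold lower (4.54 to 5.54). More than 5 Glul UMIs were held by 97 CON and 2 CCL4 hepatocytes, and 1 CCL4 barcode alone held 103 of the 466 UMIs. Oat, ornithine aminotransferase of the same layer, stood at 700.3 and 83.1 CPM, 8.43-fold lower (7.81 to 9.11), with more than 5 UMIs in 248 and 14 hepatocytes. Barcodes with many UMIs of these genes were few in CCL4, where a barcode also held fewer UMIs in all. Thinned to 1000 UMIs, 17.7% of CON and 3.12% of CCL4 hepatocytes would hold a Glul UMI (56.7% and 9.3% before thinning), against 8.29% and 3.53% of T cells, so the CCL4 share is read as background. Cyp1a2, a drug-oxidising P450, was at 183 and 22 CPM, 8.29-fold lower, and Cyp2c29 at 752 and 106 CPM, 7.08-fold lower. In HFD both stood above CON, at 846 and 1169.8 CPM.

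**Figure D3:**
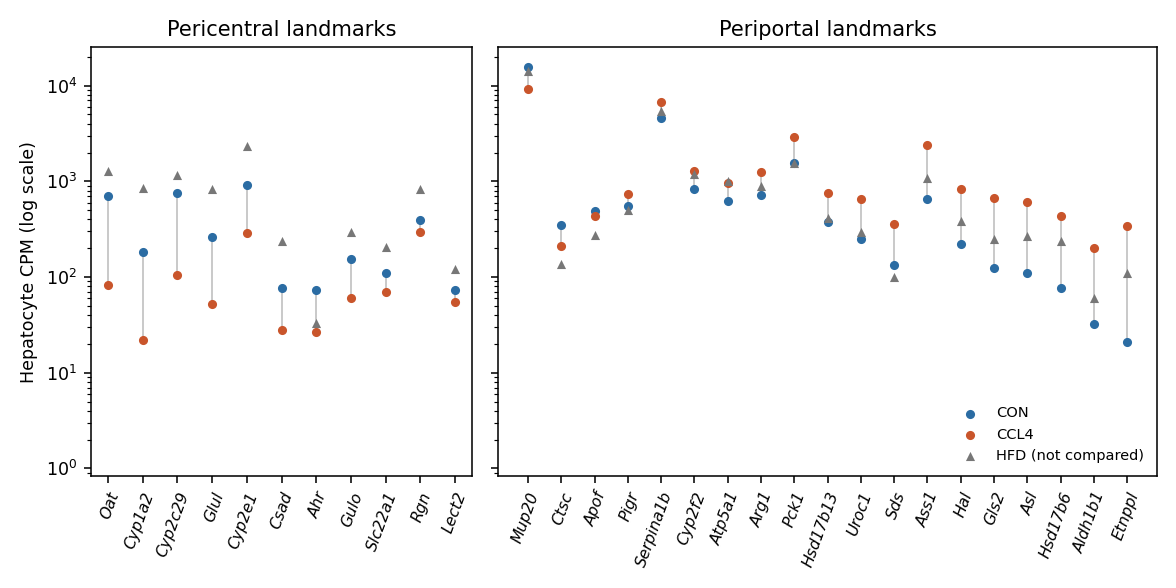
Hepatocyte level (y axis, CPM, log scale) of each compared pericentral (left) and periportal (right) landmark gene in CON, CCL4 and, for reference, HFD, ordered by the ratio of CCL4 to CON. Grey lines join CON and CCL4. Every pericentral gene was lower in CCL4 than in CON, 8 of 11 at least 2-fold, and 9 of 19 periportal genes were at least 2-fold higher.

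On the portal side, Etnppl, which breaks down phosphoethanolamine, stood at 21.1 CPM in CON and 343 CPM in CCL4, 16.2-fold higher (14.1 to 18.7). Its T cell levels of 3.51 and 137 CPM differed more, 39-fold. Aldh1b1, a mitochondrial aldehyde dehydrogenase, was at 31.9 and 199 CPM, 6.23-fold higher, and 10.0-fold higher in T cells. Hsd17b6, a steroid dehydrogenase, was 5.71-fold higher, and 14-fold higher in T cells (20.3 and 285 CPM). The urea cycle, a portal pathway that detoxifies ammonia, had 3 of 6 compared genes at least 2-fold higher (background 8.4%) and 0 lower. Of these 3, Asl and Ass1 are also among the 9 higher periportal landmarks. Asl and Ass1, which follow each other in the cycle, stood at 109 and 659 CPM in CON and at 613 and 2387 CPM in CCL4, 5.63-fold and 3.62-fold higher. Otc was 2.49-fold higher (1.87 times CON with the T cell mean taken off), and Arg1, the last enzyme, 1.74-fold. The T cell levels of Ass1, 312 and 1952 CPM, differed 6.26-fold, and those of Asl, 53 and 333 CPM, 6.28-fold, both more than in hepatocytes. Serpina1b, an alpha-1 antitrypsin copy and an abundant periportal gene, stood at 4627 and 6722 CPM, and Mup20, a urinary protein, at 15713 and 9160.1 CPM.

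Amino acid breakdown was the group with the most genes at a higher level. Of 32 compared genes, 18 were at least 2-fold higher in CCL4 and 1, Oat, was lower, with a median log2 ratio of 1.14. Hal, Sds and Uroc1 among the 18 were counted with the periportal landmarks too, and Oat with the pericentral ones. The median in T cells was 1.83, and 29 of the 32 were at least 2-fold higher there, where the background was 19.8%. Got1, the cytosolic aspartate aminotransferase, stood at 196 CPM in CON and 1003 CPM in CCL4, 5.12-fold higher (4.87 to 5.37), with 111 and 509 CPM in T cells. Tdo2, which opens the ring of tryptophan, was at 697 and 2909 CPM, 4.17-fold higher, with 214 and 1653 CPM in T cells. Hal, which deaminates histidine, was 3.75-fold higher. Tat, the glucocorticoid-induced tyrosine aminotransferase, stood at 1296 and 2202 CPM.

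Genes of glucose output and fasting had 10 of 16 members at least 2-fold higher and 2 lower (Irs2 and Igfbp1). Sds, among the 10, is also in the periportal and amino acid lists. G6pc, the last enzyme of glucose release, stood at 169 CPM in CON, 1376 CPM in CCL4 and 527 CPM in HFD hepatocytes, 8.16-fold higher with CCl4 (7.76 to 8.58). Its T cell levels were 29.2 and 375 CPM, so that within each library hepatocytes lay well above T cells. At least 1 G6pc UMI was seen in 59.9% of CON and 95% of CCL4 hepatocytes, and thinned to 1000 UMIs in 15.2% and 71.3%, against 2.68% and 29.4% of T cells. Pck1, the gatekeeper of gluconeogenesis, differed less, at 1561 and 2913 CPM. Ppargc1a, a coactivator of gluconeogenic genes in fasting, was 4.68-fold higher, and Lpin1, a phosphatidate phosphatase, was at 156 and 907 CPM, 5.83-fold higher. The feeding state and hour of sampling are not given in the sources used here.

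Among the 15 highest genes by rank, Angptl8, an insulin-induced inhibitor of lipoprotein lipase, stood at 7.3 CPM in CON and 106 CPM in CCL4, 14.5-fold higher (11.4 to 18.6). Its T cell levels were 3.32 and 114 CPM, the latter above that of CCL4 hepatocytes, and with the T cell mean taken off its ratio was 7.5. G0s2, an inhibitor of fat breakdown, was at 54.2 and 601 CPM, but stood higher in T cells of both libraries (161 and 885 CPM). In CON a T cell held more G0s2 UMIs (0.515) than a hepatocyte (0.48). The T cell mean was therefore taken off in CCL4 only, and the resulting ratio of 1.03 sets a subtracted against a whole level. Ppp1r3b, which directs a phosphatase to glycogen, was 7.0-fold higher, and 6.31-fold higher in T cells. Rgs16, a brake on G protein signalling, stood at 22.6 and 284 CPM, 12.6-fold higher (11 to 14.4), and its T cell levels of 62 and 144 CPM differed only 2.32-fold. Arrdc3, an arrestin-like protein, was at 22.7 and 214 CPM in hepatocytes and 91.4 and 97.4 CPM in T cells. In CON, Rgs16 and Arrdc3 stood higher in T cells than in hepatocytes. How much of their T cell level was free hepatocyte RNA was not tested. Upp2, a uridine phosphorylase, was 6.92-fold higher (51 and 353 CPM), and 9.41-fold higher in T cells. In HFD hepatocytes Upp2 stood at 357 CPM, close to CCL4. The HFD levels of the other higher genes in this paragraph lay between CON and CCL4, among them Arrdc3 at 172 CPM and Angptl8 at 43.8 CPM. Defb1, an antimicrobial peptide, had 19 UMIs in CON and 471 in CCL4. Defb1 levels were 1.85 and 53.2 CPM in hepatocytes and 0.554 and 44.1 CPM in T cells. Among the 15 lowest genes outside the lists, Fabp5, a fatty acid carrier, stood at 323 CPM in CON and 2.6 CPM in CCL4 (225 and 40.9 CPM in T cells), and Tifa, an adaptor of NF-kB signalling, at 577 and 12.3 CPM (150.1 and 4.13 CPM in T cells).

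Few higher genes exceeded the difference in T cells by a set margin. Only 19 compared genes had a hepatocyte log2 ratio at least 1 above that of T cells together with a CCL4 level at least 2 times that of T cells, and 12 of them were at least 2-fold higher. Beside Arrdc3 and Fam214a (8.51-fold), they included Sulf2, a sulfatase of heparan sulfate (10.3 and 55.8 CPM), Klf10, a glucose-responsive transcription factor (30.3 and 123 CPM), and Npc1, which exports cholesterol from lysosomes (68.7 and 143 CPM). In CON, Arrdc3, Fam214a and Sulf2 stood higher in T cells (91.4, 24.6 and 11.3 CPM) than in hepatocytes (22.7, 16.3 and 10.3 CPM). Klf10 and Npc1 did not (29.5 and 54.1 CPM in T cells). In HFD hepatocytes Npc1 stood at 160 CPM, above CCL4. Fam214a (57.8 CPM), Sulf2 (21.5 CPM) and Klf10 (48.2 CPM) lay between CON and CCL4 there. Rgs16 (12.6-fold, 2.32-fold in T cells) and Lpin1 (5.83-fold and 3.55-fold) also differed more in hepatocytes but missed a limit of the rule. On the lower side, 109 genes met the mirror rule, set on the CON level, and 66 of these were at least 2-fold lower, with Mup11, Mup17, Lcn2, Orm2, Apcs, Il1r1, Il1rn, Cyp4a12a, Slco1a1 and Cyp4a12b as the 10 lowest by rank. Among them are acute-phase, interleukin 1 and male-biased genes, which are described with their lists. The 20 hepatocyte genes used to check the label summed to 29734 CPM in CON and 93905 CPM in CCL4 T cells. In hepatocytes they summed to 99014 and 108885 CPM. Such genes therefore met the rule less easily on the higher side, so the counts of 19 and 109 cannot be set against each other.

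**Figure D4:**
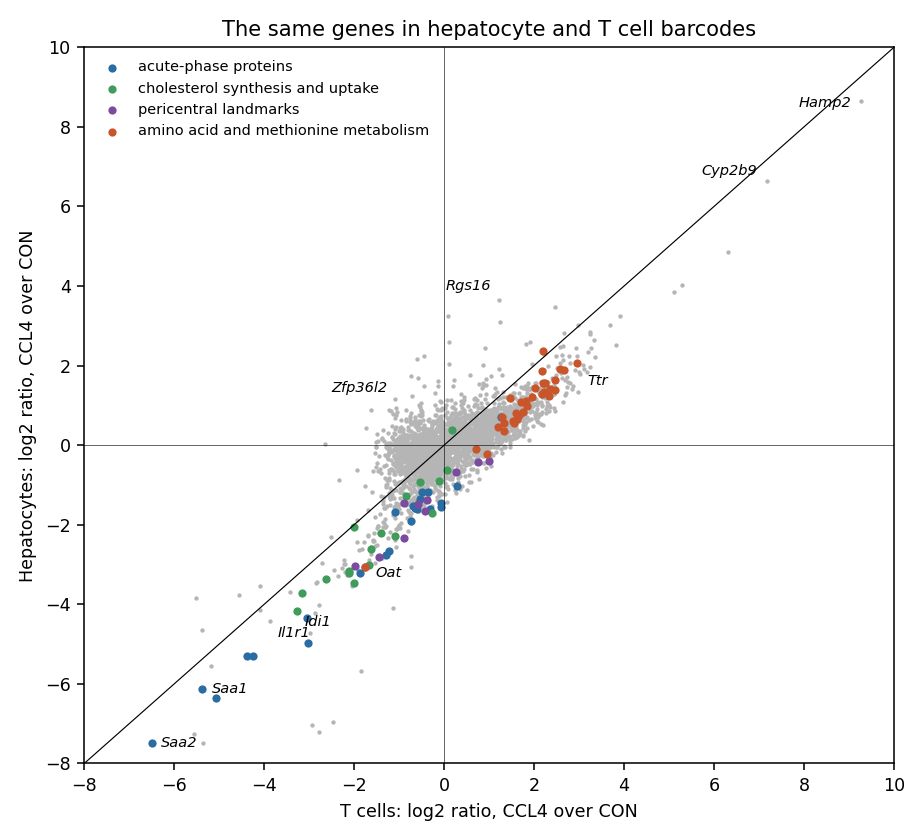
The log2 ratio of CCL4 to CON for each compared gene in T cells (x axis) and in hepatocytes (y axis), with the line of equal ratios. T cells stand for free RNA, except for genes that T cells express themselves. Most acute-phase, cholesterol and pericentral genes lie under the line at negative ratios, where hepatocytes differed more than T cells, and most amino acid genes lie under it at positive ratios, where T cells differed more.

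Hepcidin, the peptide hormone that locks iron inside cells, is encoded by Hamp (ENSMUSG00000050440). Hamp2 (ENSMUSG00000056978) is a neighbouring copy of that gene, and whether it acts on iron was not tested. Hamp, named after its value had been seen as the exception among the acute-phase genes, had 32297 UMIs in CON and 45766 in CCL4 hepatocytes, 3145 and 5173 CPM, 1.64-fold higher (1.62 to 1.67). At 1000 UMIs per barcode, 80.9% of CON and 89% of CCL4 hepatocytes would hold a Hamp UMI, against 64.1% and 98% of T cells. Hamp2 was the gene with the highest ratio of all, with 19 UMIs in CON and 6539 in CCL4, 1.85 and 739 CPM, 399-fold higher (256 to 664). It was seen in 13 of 1161 CON and 1672 of 2399 CCL4 hepatocytes. T cells held it too, at 1.11 CPM in CON and 688 CPM in CCL4, and 39.9% of hepatocytes and 50% of T cells of CCL4 would hold a Hamp2 UMI at 1000 UMIs (69.7% and 78.4% before thinning). For every 100 Hamp UMIs there were 0.0588 Hamp2 UMIs in hepatocytes and 0.0566 in T cells of CON, 14.3 and 14.6 in CCL4, and 2.98 and 2.76 in HFD. Each library had its own proportion of the copies, and it was close in its hepatocytes and T cells. Reads of such close copies may be assigned to either by the counting, and the CCL4 levels of Hamp2 rest on that assignment.

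The start regions of these copies, both on the minus strand, Hamp at chr7:30943980-30944279 and Hamp2 at chr7:30924132-30924431 of GRCm38.p6 in RefSeq, show how near they are. Capitals mark matches on either strand of GGCGCC, the core to which SMAD proteins of the BMP pathway bind, and of TTCNNNGAA, the STAT letters through which interleukin 6 acts.
Hamp: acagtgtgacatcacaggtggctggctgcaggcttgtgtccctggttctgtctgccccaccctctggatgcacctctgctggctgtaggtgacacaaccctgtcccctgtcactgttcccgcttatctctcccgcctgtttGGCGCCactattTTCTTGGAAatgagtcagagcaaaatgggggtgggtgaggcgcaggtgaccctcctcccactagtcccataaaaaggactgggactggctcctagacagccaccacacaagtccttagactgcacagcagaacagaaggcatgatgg
Hamp2: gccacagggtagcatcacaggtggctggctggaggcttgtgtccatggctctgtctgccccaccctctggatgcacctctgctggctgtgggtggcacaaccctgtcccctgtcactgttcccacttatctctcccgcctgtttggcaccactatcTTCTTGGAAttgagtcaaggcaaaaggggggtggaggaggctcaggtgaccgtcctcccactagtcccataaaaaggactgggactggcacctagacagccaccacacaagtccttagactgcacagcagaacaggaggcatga
Over 297 aligned bases the windows were identical at 92.9%. TTCNNNGAA was matched 1 time in each (8.3% of the 32851 windows hold it), and GGCGCC 1 time in Hamp and 0 times in Hamp2 (11.9% of windows hold it).

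Among 12 compared genes of the iron list, in which Hamp2 was placed, 3 were at least 2-fold higher (background 8.4%) and 3 lower (background 9.02%). Besides Hamp2, the higher genes were Tfrc, the transferrin receptor (22.3 CPM in CON and 76.2 CPM in CCL4), and Slc40a1, the iron exporter ferroportin (37.4 and 126 CPM). Slc11a2, an iron importer, was 3.25-fold lower. Trf, transferrin, stood at 8394 and 7491 CPM, and Hpx, the heme carrier hemopexin, at 10274 and 5042 CPM.

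Genes that male mouse livers express above female ones, under the control of pulsed growth hormone, were at least 2-fold lower in 10 of 15 cases (background 9.02%). In 0 cases they were higher, and their median log2 ratio was -1.64 (-0.81 in T cells). All animals were male. Cyp4a12a, a fatty acid hydroxylase, stood at 173 CPM in CON and 6.56 CPM in CCL4, 26.4-fold lower (20.3 to 34.8), and at 329 CPM in HFD. Its copy Cyp4a12b had 609 and 4 UMIs. Reads of these copies may be split between them by the counting, and both lay far lower. Slco1a1, an importer of organic anions, was at 205 and 11.1 CPM, 18.6-fold lower, and Selenbp2, a selenium-binding protein, at 207 and 15.9 CPM. Cyp2b9, a P450 found mainly in females, went the other way, with 10 UMIs in CON and 864 in CCL4, 0.974 and 97.7 CPM, and 5.91 CPM in HFD. It was 100.3-fold higher (54.3 to 209.9), while Prlr, the prolactin receptor, and Lifr, the other compared female-biased genes, differed by less than 2-fold. Only 3 of 23 listed female-biased genes reached 50 CPM, with a median log2 ratio of 0.63. With a minimum of 20 CPM, which lets in genes of lower level, the median of the list was 2.48.

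Major urinary proteins, pheromone carriers made in bulk by male liver, did not all lie on the same side. Mup11 stood at 1608 CPM in CON and 10.4 CPM in CCL4, and Mup17 at 891 and 4.97 CPM. They were 155-fold and 179-fold lower. Mup3 was at 11534 and 16229.6 CPM, 1.41-fold higher. In T cells Mup3 stood at 3914 and 15307 CPM, and with the T cell mean taken off its ratio was 0.886, on the other side of 1. Mup21 was at least 2-fold higher, so 6 of 9 were lower and 1 higher. Mup9 and Mup7 were 8.87-fold and 7.82-fold lower. Many of these genes are near-identical copies, and how the counting shared reads among them makes the value of each member uncertain. The summed level of the family was 30294 CPM in CON and 25798 CPM in CCL4. Serpina1e, an alpha-1 antitrypsin copy of the male liver, was 9.61-fold lower, at 10739 and 1118 CPM. Reads of such copies may also be shared among them by the counting, and the copy Serpina1b lay on the other side (4627 and 6722 CPM).

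Cytochrome P450 enzymes lay on both sides. Of 35 compared genes, 14 were at least 2-fold lower (background 9.02%) and 5 higher (background 8.4%). The median log2 ratio was -0.30 in hepatocytes and 0.81 in T cells. The abundant members Cyp4a14, a fatty acid hydroxylase, and Cyp2f2, of the portal zone, stood at 1458 and 832 CPM in CON and 839 and 1275 CPM in CCL4. In bile acid synthesis, Cyp7a1, the rate-limiting enzyme of the classical pathway, stood at 9.54 CPM in CON and 90.8 CPM in CCL4, 9.51-fold higher (7.7 to 11.9), and at 109 CPM in HFD. In T cells it stood at 2.4 and 35.8 CPM in CON and CCL4. Cyp8b1, which sets the share of cholic acid, was at 57.6 and 274 CPM, 4.75-fold higher. Cyp7b1, of the alternative pathway and itself male-biased, was 7.94-fold lower, at 463 and 58.3 CPM. Cyp7a1 and Cyp8b1 thus stood on the other side from Cyp7b1. Of 21 genes of this list 5 were higher (background 8.4%) and 3 lower (background 9.02%).

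**Figure D5:**
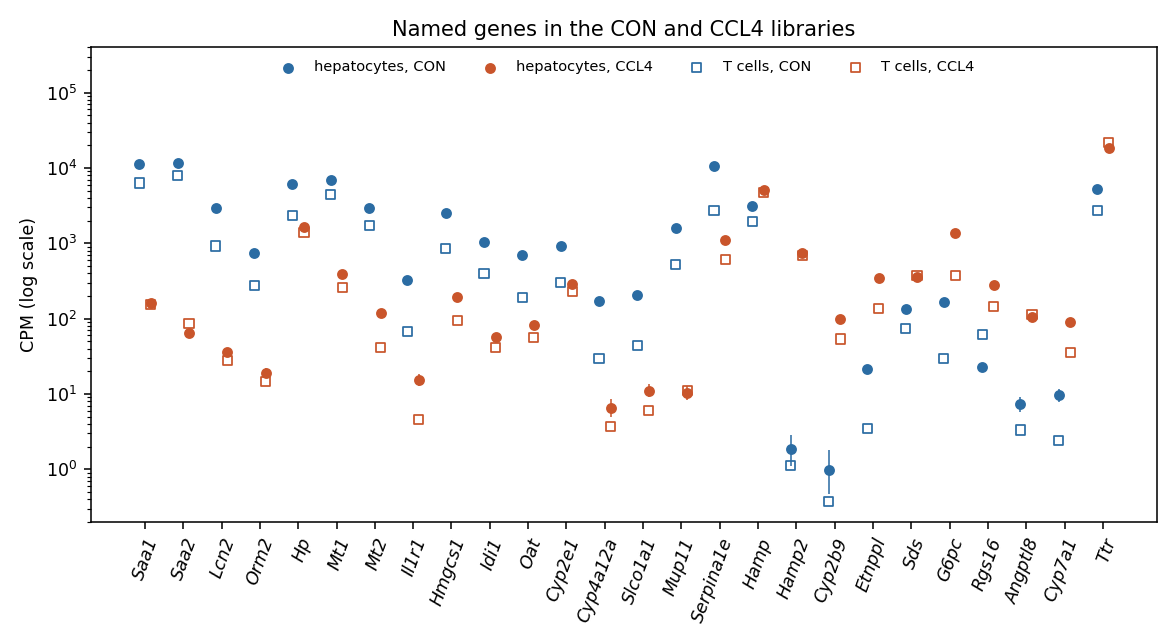
Levels (y axis, CPM, log scale) of a selection of the compared genes in hepatocytes (filled circles, with exact Poisson 95% intervals) and T cells (open squares) of the CON and CCL4 libraries. In CON the T cell level was below that of hepatocytes for these genes except Rgs16, and in CCL4 both levels were close for Saa1, Hamp, Hamp2, Sds, Angptl8 and Mup11.

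Proteins that hepatocytes release into blood differed gene by gene. Of 25 compared hormones and carriers, 6 were at least 2-fold higher (background 8.4%) and 3 lower (background 9.02%). Ttr, the carrier of thyroid hormone and retinol-binding protein, stood at 5267 CPM in CON and 18344 CPM in CCL4 hepatocytes, 3.48-fold higher (3.45 to 3.52). In CCL4 its T cell level, 21745 CPM, was above that of hepatocytes, and with the T cell mean taken off its ratio was 1.46. Apoe and Apoc1, apolipoproteins encoded side by side, were 2.53-fold and 2.74-fold higher in hepatocytes, at 15477 and 15999.7 CPM in CCL4, and stood at 15094 and 17155 CPM in CCL4 T cells. With the T cell mean taken off, their ratios were 1.49 and 1.43, under 2-fold. Serpina6, the corticosteroid carrier, was 4.62-fold higher, and Serpina7, the thyroxine carrier, 6.18-fold lower. Apom, which carries sphingosine 1-phosphate, was lower, at 406 and 186 CPM. Of 36 compared complement and coagulation genes 6 were lower (background 9.02%) and 1 higher (background 8.4%). C8b and C6, parts of the pore that complement forms, were 2.86-fold and 2.8-fold lower. Ahsg (fetuin A) and Plg (plasminogen), the most abundant of that list by UMIs, stood at 2768 and 1420.3 CPM in CON and 2931 and 1596 CPM in CCL4.

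Few genes linked to injury and regeneration reached the 50 CPM needed for comparison. Of 27 listed injury, fetal and ductal genes 11 did, and 4 of these were at least 2-fold lower (background 9.02%) and 0 higher (background 8.4%). With so few genes, a count of 0 higher cannot be told from the background. Krt8 and Krt18, the keratin pair of hepatocytes, stood at 709.7 and 365 CPM in CON and 250.1 and 102 CPM in CCL4. Spp1 (osteopontin), which cholangiocytes express strongly, was at 287 and 90.9 CPM, and the cholangiocyte markers, of which it is 1 of 7, were lower with it. In the 314 CON and 1760 CCL4 barcodes with at most 1 UMI of all other-cell markers, its log2 ratio was 0.01. Spp1 is itself among those markers, so this limit held it to at most 1 UMI per barcode. That value therefore cannot show whether Spp1 differed. Ly6d was 8.4-fold lower. Of 20 cell cycle genes only Ccnd1, the cyclin of entry into the cycle, reached 50 CPM, at 51.3 CPM in CON and 101 CPM in CCL4 (1.97-fold, 1.76 to 2.19).

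Stress, interferon and housekeeping lists differed among themselves. Immediate-early and heat-shock genes had 4 of 17 members lower (background 9.02%) and 1 higher, the latter Dusp1, a phosphatase that ends MAP kinase signals (138 and 565 CPM, with a ratio of 1.8 once the T cell mean was taken off). Klf6 was 4.88-fold lower. In the endoplasmic reticulum list, Xbp1, a driver of the unfolded protein response, was 2.91-fold lower and Herpud1, a protein of its degradation arm, 2.45-fold higher, while the chaperone Hspa5 stood at 1415 and 1296 CPM. Of 25 glutathione and antioxidant genes 2 were higher (background 8.4%) and 1, Hmox1 (heme oxygenase 1), was lower (background 9.02%). Hmox1 stood at 85 and 37.9 CPM, with a ratio of 0.578 once the T cell mean was taken off. Interferon and MHC class I genes had 1 lower member of 9 (background 9.02%). It was Ifi47, an interferon-induced GTPase (50.6 and 15.4 CPM), whose log2 ratio was 0.01 with the T cell mean taken off. Of 5 compared clock genes 1, Hlf, was higher. Ribosomal protein genes had a median log2 ratio of -0.62 in hepatocytes and -0.46 in T cells, and 13 of 76 were at least 2-fold lower, against 9.02% of all compared genes.

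Hepatocyte transcription factors were mixed, with 4 of 15 higher (background 8.4%) and 3 lower (background 9.02%). Besides Cebpb, Foxa3, a pioneer factor of liver genes, was lower (164 and 66.5 CPM), whereas Hlf, of the circadian PAR family, was higher (32.6 and 88.5 CPM). Cebpa, the factor of the differentiated hepatocyte, was at 211 and 275 CPM.

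The genes the study was built around were too rare for this comparison and did not reach 50 CPM. Bdnf, which encodes brain-derived neurotrophic factor, had 26 UMIs in CON and 42 in CCL4 hepatocytes, 2.53 and 4.75 CPM, a ratio of 1.87 (95% interval 1.12 to 3.19), with 2 and 4 UMIs in T cells. Bdnf was seen in 2.07% of CON and 1.75% of CCL4 hepatocytes, and thinned to 1000 UMIs in 0.287% and 0.517%, against 0.0427% and 0.13% of T cells (0.118% and 0.322% before thinning). Rest, the repressor of neuronal genes, was at 35.8 and 31 CPM (ratio 0.864, 0.736 to 1.01). Ntrk2, the TrkB receptor of Bdnf, had 0 UMIs in CON and 105 in CCL4 hepatocytes, where they lay in 91 of 2399 barcodes with at most 3 in any of them. Set against the 3 counts that a count of 0 allows over the whole CON set, Ntrk2 was at least 40.6-fold higher. It had 0 UMIs in CON and 8 in CCL4 T cells. Tlr4 and Ngfr had 0 UMIs in the hepatocytes of both libraries.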

How the data were processed

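Single-cell RNA-seq UMI counts of the CON and CCL4 libraries were analysed, and HFD was used for levels only. The authors deposited raw counts for each gene in each barcode, which per the file headers came from Cell Ranger 7.2.0, and Seurat is named in the submitters' processing notes. They carry no correction for free RNA, every barcode held at least 1629 UMIs, and doublets were not called. Barcodes were assigned by the rule given in the text, which allows barcodes of mixed content, and their UMIs were summed and scaled to CPM over all genes. Genes with at least 50 CPM in either library were compared, and a 2-fold ratio was counted as higher or lower, with no test, since there was 1 library per condition. Intervals (95%) were exact Poisson for levels, exact conditional for ratios and Clopper-Pearson for shares. They cover counting error only. A gene at 0 was set to a floor of 3 counts over the set of barcodes for a bound. Shares of barcodes with a UMI were also computed after thinning each barcode to 1000 UMIs.

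Genes were named by rank of the ratio of CPM plus 5 (15 highest, 15 lowest, and 10 each beyond the T cell difference by 1 on the log2 scale) and by list (the 4 largest ratios and the 2 highest levels), and exceptions are marked in the text. The members and the 29 lists were chosen with earlier results of these data known. Some genes are in more than 1 list and are counted in each, so the lists are not independent groups. Alternatives covered the mitochondrial window, the hepatocyte and other-cell limits, depth, scaling, the CPM minimum, the fold and the T cell set. The counting was tested on simulated data. Some items are not reported here. Promoter windows came from RefSeq on GRCm38.p6. Python 3.11.15, numpy 2.4.6, scipy 1.17.1, pandas 2.3.3 and matplotlib 3.10.9 were used.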

Additional observations from a re-analysis of the deposited data

Results flagged for a closer look

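Zfp36l2, an RNA-binding protein that promotes mRNA decay, was the single compared gene that differed at least 2-fold in opposite directions in hepatocytes and T cells, which brought it to notice. In hepatocytes it stood at 63.1 CPM in CON and 139.8 CPM in CCL4, a ratio of 2.22 (95% interval for counting error 2.01 to 2.44). In T cells, which express the gene strongly themselves, it stood at 1063 CPM in CON and 502 CPM in CCL4. The difference between the cell types was not tested, since each has 1 library per condition.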

How the results depend on the processing

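No paired analysis was possible because there was 1 library per condition. Of 46 counts recomputed under 1 changed choice each, 34 stayed within 1.5 times the reported count. The 232 higher genes became 362 with a mitochondrial share of 10 to 30%, which left 134 CON and 409 CCL4 barcodes, and 394 with a minimum of 20 CPM. With a fold of 1.5, 554 genes were higher and 487 lower in hepatocytes, and 867 and 655 in T cells. With a fold of 4, these counts were 43 and 95 in hepatocytes and 134 and 44 in T cells. With the T cell mean taken off the hepatocyte mean of each library, 607 genes were higher and 438 lower. A gene with the higher mean in T cells of a library was left whole there. The higher share of the calls moved from 48.2% to 58.1%, and the median of all genes moved from 0.05 to 0.24 on the log2 scale. The cause of these moves was not tested beyond the smaller sets and changed limits themselves. Scaled by the median ratio, the higher share of the calls was 43.1%.

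Of 523 list medians recomputed, 506 moved by less than 0.5 on the log2 scale, and none of those at or past 1 changed sign. With at most 1 UMI of other-cell markers the pericentral and periportal medians moved out to -2.34 and 1.82, and with 2000 to 6000 UMIs per barcode the pericentral median was -2.07 and that of the P450 enzymes -0.87. The acute-phase median ranged from -1.86 to -1.60, the cholesterol median from -2.45 to -2.10, the periportal median from 0.93 to 1.82 and the amino acid median from 0.85 to 1.21. The female-biased median, 0.63 as reported, ranged more widely, from 0.18 to 2.72. That of metallothioneins and zinc transporters, -4.14 as reported, ranged more widely still, from -5.06 to -0.92. The value of -0.92 came with a minimum of 20 CPM. In hepatocytes of 2000 to 6000 UMIs (348 in CON and 1676 in CCL4), an alternative added after seeing the data, 257 genes were higher and 282 lower. Of 153 named genes, 18 had a log2 ratio of the other sign under at least 1 alternative, 15 of them under 2-fold as reported and 3 past it. Spp1 had a log2 ratio of 0.0109 with at most 1 UMI of other-cell markers, a limit that counts Spp1 itself. Nfkb1 and Ifi47 had 0.217 and 0.00972 with the T cell mean taken off. For Nfkb1 that mean was taken off in CON only. T cells with under 20 UMIs of Alb, Apob and Cps1 could not be used as background, since CCL4 held 0 of them. Depth limits genes under 50 CPM, and without replicate libraries no spread between animals was available.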
